A study of Rattus norvegicus with 12 samples.

Results

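Ketotifen was compared with placebo in the lungs of sham-operated rats. The members were chosen by their labels, not by any measured value: the 3 lungs labelled sham with ketotifen and the 3 labelled sham with placebo, which are 6 of the 12 arrays of the series. All 6 rats were male Sprague-Dawley animals, described as age matched, which had gone through the chest operation as juveniles without a clip being placed on the aorta. Body weight at that time was 91 ± 9 g in the banded rats, and the sham rats are described as similar. From the day after the operation, 3 rats drank water with ketotifen fumarate, dosed daily at 1 mg per kg. The 3 control rats received placebo by the labels (the design text calls the corresponding CHF rats untreated). Whole lungs were taken 9 weeks after surgery, and total RNA of each lung was hybridized to 1 Affymetrix rat array. The other 6 arrays came from rats with congestive heart failure (CHF) after aortic banding, 3 with placebo and 3 with ketotifen. They entered the fit that sets the spread, and are used below only where the drug comparison in sham lungs is set beside that in CHF lungs. By its title the series asks what mast cells do in pulmonary hypertension with left heart disease, and the sham arms show the drug without the heart disease.

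Ketotifen blocks the H1 histamine receptor and stabilizes mast cells, the tissue cells that store histamine and proteases in granules and carry the high-affinity IgE receptor. A whole lung also holds lymphocytes, macrophages, alveolar and airway epithelium, vessels and smooth muscle. B cells make antibody, T cells and natural killer cells kill infected cells with granzymes and perforin, and most cells answer interferon by switching on antiviral genes and the machinery of antigen presentation. Major histocompatibility complex (MHC) proteins, named RT1 in the rat, carry peptides to T cells, and the RT1 genes are polymorphic and related in sequence. Ciliated and club cells line the conducting airways, so that their genes rise with the share of airway in a lung sample. In a whole lung, fewer cells of a type and less RNA per cell cannot be told apart, and this holds for every gene group described here.

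The deposited values are log2 expression values per probe set, so that a difference of 1 is a doubling, and values under about 4 lie near the array's background. The lung label was borne out by the surfactant and other genes of alveolar type 2 cells, all 11 measured, whose mean level was between 12.47 and 13.29 in the 6 sham lungs. Sham placebo lung 1 was closer to sham ketotifen lung 3 (r = 0.983 across probe sets) than to either other placebo lung (0.929 and 0.963). The difference between 3' and 5' probe sets of the beta-actin control, which grows with RNA degradation, stood at 3.45, 4.23 and 3.90 for placebo lungs 1 to 3 of the sham rats. For ketotifen lungs 1 to 3 it stood at 2.91, 4.52 and 3.30. Cardiomyocyte genes, 12 of 25 listed genes measured, reached a mean level of 7.11 in placebo lung 3, 5.65 in ketotifen lung 1 and 8.70 in ketotifen lung 2. The remaining 3 sham lungs lay between 2.75 and 3.29. Results that rest on these lungs are given with and without them below. Without placebo lungs 2 and 3 and ketotifen lung 2, the 3 lungs of largest 3' minus 5' difference, 1 placebo lung remains. Without the 3 lungs with cardiomyocyte RNA 1 ketotifen lung remains. Only sizes of difference are given for such fits, which cannot decide a call.

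Few genes differed between the arms beyond the spread of the lungs. Of 16536 probe sets tested with limma, 7 were higher with ketotifen (0.0423% of those tested) and 7 were lower (0.0423%) at a Benjamini-Hochberg adjusted p under 0.05, and in all 14 the values of the arms did not overlap. At an unadjusted p under 0.05 there were 1043 higher (6.31%) and 1267 lower (7.66%). The arms did not overlap in 1241 probe sets higher with the drug (7.50%) and 1466 lower (8.87%). Over all probe sets tested the median difference was -0.0019. The 14 calls included 7 probe sets that the annotation used here does not name. The count of 14 depended on single lungs: it was 722 without sham placebo lung 1, 6 without placebo lung 2, 4 without placebo lung 3, 6 without ketotifen lung 1 and 4 without ketotifen lung 2. It was 2 without the lung of largest 3' minus 5' difference in each arm. Counts without the 3 lungs of largest difference or the 3 lungs with cardiomyocyte RNA are not given, because an arm then holds 1 lung. In 4 probe sets the call held in all 6 fits that left out 1 sham lung.

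Among the named genes, 4 rose with ketotifen by the adjusted test. Vav3, a signalling protein that acts downstream of lymphocyte and other receptors, measured 6.82, 6.59 and 6.79 in the placebo lungs and 7.92, 8.07 and 7.90 in the ketotifen lungs. Every ketotifen lung lay more than 1 log2 unit above the highest placebo lung. The difference was 1.23 ± 0.14 (SE, n = 3 per arm), a 2.34-fold rise with a limma adjusted p of 0.0082. Klf10, a zinc finger transcription factor induced by TGF-beta, was the tightest of the 4. It measured 10.36, 10.34 and 10.36 with placebo and 11.32, 11.49 and 11.21 with ketotifen, a rise of 0.98 ± 0.12 (1.98-fold, adjusted p = 0.0103).

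The other 2 named genes that rose belong to the B cell and interferon lists. Fcrla, an Fc receptor-like protein found inside B cells, measured 7.61, 6.49 and 7.52 in the placebo lungs and 10.38, 10.41 and 9.66 in the ketotifen lungs. All 3 ketotifen lungs were more than 2 log2 units above all 3 placebo lungs, and the difference was 2.94 ± 0.41 (7.69-fold, adjusted p = 0.0277). The 6 CHF lungs lay between 9.18 and 11.00, so that the placebo sham lungs were the low group. Ifit1, an antiviral protein that binds foreign RNA and is induced by interferon, measured 3.32, 3.57 and 2.79 with placebo and 6.05, 6.10 and 4.93 with ketotifen. The placebo values lie near background, and the CHF lungs were between 3.31 and 4.27, so that here the ketotifen sham lungs were the high group. The difference was 2.47 ± 0.35 (adjusted p = 0.036). Only 2 of the 9 other lungs reached the filter's level of 4, so that Ifit1 entered the test through the group where it is high, and the size of its difference is uncertain. Without the filter the calls of Ifit1 and Fcrla ended (both adjusted p = 0.0676). The calls of Klf10, Fcrla and Ifit1 ended without placebo lung 2, placebo lung 3, ketotifen lung 1 or ketotifen lung 2, and that of Vav3 without placebo lung 3 or ketotifen lung 2. Without the 3 lungs with cardiomyocyte RNA the difference was 1.48 for Ifit1, 2.61 for Fcrla, 1.19 for Vav3 and 0.86 for Klf10. Without the 3 lungs of largest 3' minus 5' difference it was 2.17, 2.41, 1.09 and 0.90. In a limma fit of only the 6 sham arrays none of these genes was called (adjusted p = 0.258 for Ifit1 and 0.147 for the others).

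**Figure D1:**
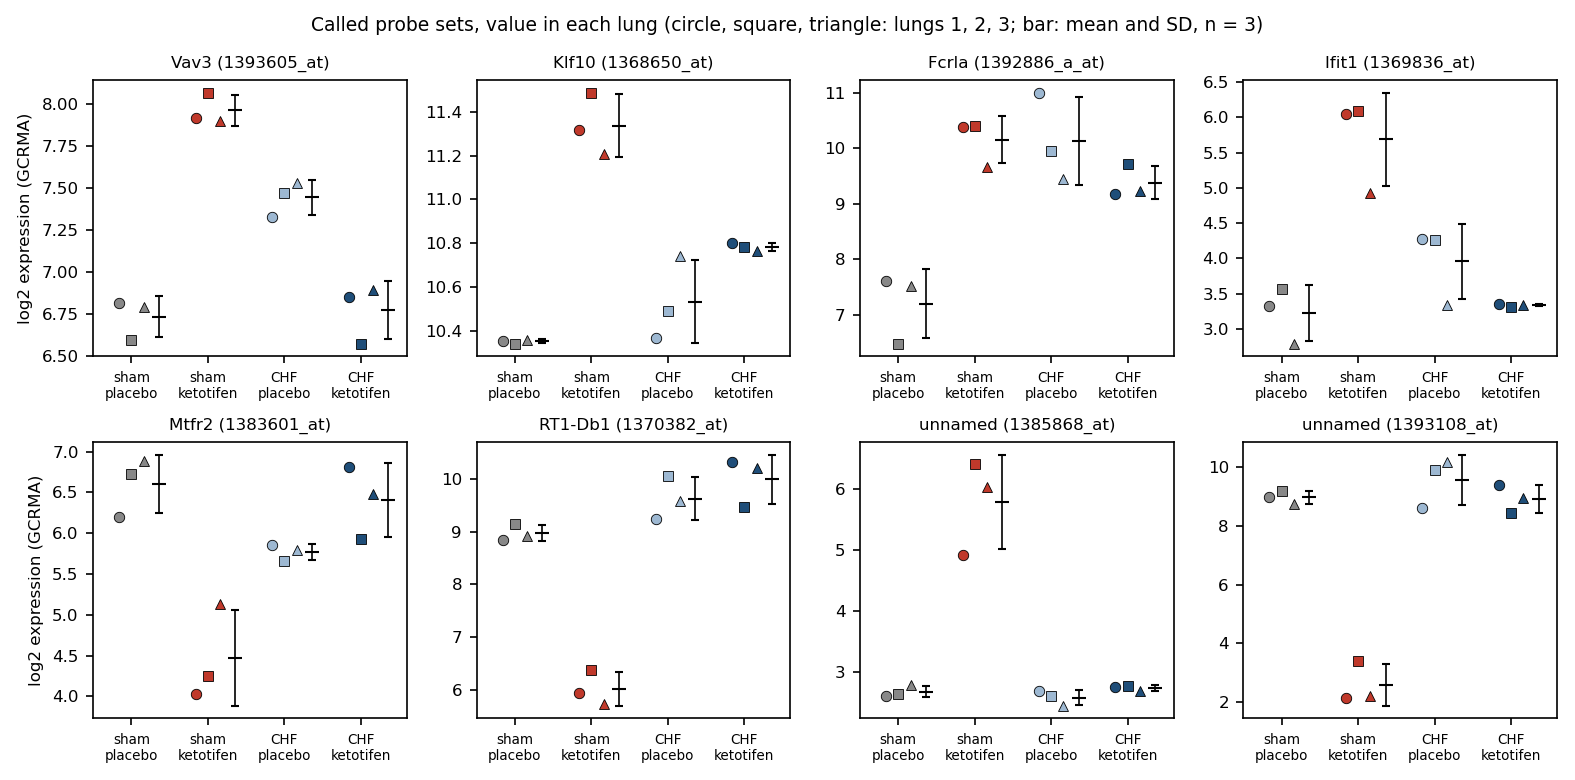
Log2 expression of 8 of the 14 called probe sets in each of the 12 lungs, by group, with the mean and SD of the 3 lungs beside them; each panel has its own axis. Vav3 lay between 6.59 and 6.82 in sham placebo lungs and between 7.90 and 8.07 in sham ketotifen lungs, while the unnamed probe set 1393108_at lay between 2.14 and 3.40 in sham ketotifen lungs and above 8 in the 9 others.

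Mtfr2, a regulator of mitochondrial fission, fell. It measured 6.20, 6.73 and 6.88 in the placebo lungs and 4.03, 4.25 and 5.13 in the ketotifen lungs, with ketotifen lung 3 the nearest to the placebo arm, and the fall was -2.13 ± 0.31 (adjusted p = 0.036). The CHF lungs were between 5.66 and 6.82. Its call ended in the same 4 fits as that of Fcrla and without the filter (adjusted p = 0.0793), and without the 3 lungs with cardiomyocyte RNA the difference was -1.33. LOC100909675, which has no further name in the annotation used here, fell by 1.83 ± 0.27 on the log2 scale (adjusted p = 0.036). Its call held in 1 of the 6 fits without 1 lung, and ended without the filter (adjusted p = 0.073), with the stricter filter (0.0516) and under quantile normalization (0.0547).

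Unnamed probe sets had 3 of the 4 calls that held in all 6 fits without 1 lung. The probe set 1393108_at measured 8.97, 9.18 and 8.76 with placebo and 2.14, 3.40 and 2.21 with ketotifen, a difference of -6.38 ± 0.44 (adjusted p = 0.00028). It stood at 8.42 to 10.19 in the 6 CHF lungs, so that only the 3 sham ketotifen lungs of the 12 were near background. In the opposite direction, 1385868_at measured 2.60, 2.64 and 2.78 with placebo and 4.92, 6.41 and 6.03 with ketotifen, with the CHF lungs at 2.44 to 2.76. It passed the filter only through the 3 sham ketotifen lungs, so that it had to differ, and its values are a description. The third, 1387366_at, rose by 1.64 ± 0.17 (adjusted p = 0.0041), from between 3.93 and 4.13 to between 5.49 and 5.84. Without the lung of largest 3' minus 5' difference in each arm the calls of 1385868_at and 1387366_at ended (both adjusted p = 0.0562). Without the 3 lungs of largest difference 1393108_at was at -6.79.

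The fourth of these calls was a probe set of RT1-Db1, a beta chain of MHC class II. The probe set 1370382_at measured 8.85, 9.14 and 8.93 in the placebo lungs and 5.95, 6.37 and 5.74 in the ketotifen lungs, and fell by 2.95 ± 0.27 on the log2 scale (7.73-fold, adjusted p = 0.0022). The CHF lungs lay between 9.23 and 10.31, again with the sham ketotifen lungs alone low. The difference was -3.00 without the 3 lungs of largest 3' minus 5' difference and -3.25 without the 3 lungs with cardiomyocyte RNA. A brighter probe set of the same gene, 1370383_s_at, measured 11.35, 11.04 and 11.07 with placebo and 10.72, 10.95 and 10.63 with ketotifen. Its arms did not overlap either, but the difference was -0.38 ± 0.12 (adjusted p = 0.252), a small part of that of the dimmer probe set.

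Other RT1 probe sets, singled out after their values were seen, also set sham ketotifen lungs apart from the rest. RT1-Bb, a class II beta chain, has a probe set (1371065_at) at 3.14, 3.16 and 3.11 with placebo, at 9.35, 9.68 and 5.43 with ketotifen and at 3.13 to 3.23 in all 6 CHF lungs. Ketotifen lungs 1 and 2 were high and lung 3 between. The brighter RT1-Bb probe set, 1371033_at, had the other sign: 12.27, 12.08 and 12.27 with placebo, and 10.96, 10.89 and 12.01 with ketotifen (-0.92 ± 0.30, adjusted p = 0.257). RT1-N2, a gene of the class I region, measured 2.75, 2.73 and 2.76 with placebo, 7.41, 6.97 and 4.29 with ketotifen and 2.64 to 2.81 in CHF lungs. In RT1-Bb and RT1-N2 alike, ketotifen lungs 1 and 2 were high, lung 3 was lower, and the 9 other lungs of the series were near background. Both probe sets passed the filter only through the sham ketotifen lungs, so that they had to differ there, and their values are a description. RT1-A at 1370429_at, a class I gene, followed the same order among the ketotifen lungs (10.30, 9.57 and 7.69, against 7.81, 7.83 and 7.10 with placebo), with arms that overlap (1.61 ± 0.57, adjusted p = 0.29).

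A different lung stood out in other RT1 probe sets. The probe set 1377334_at of RT1-Ba, a class II alpha chain, measured 8.26, 3.62 and 8.02 in the placebo lungs and 9.67, 9.47 and 9.15 with ketotifen, so that most of its difference of 2.80 came from placebo lung 2. RT1-CE10 at 1388203_x_at, a class I gene, was 10.86, 7.02 and 10.79 with placebo and between 10.87 and 11.38 with ketotifen. Over all 30 RT1 probe sets measured the median difference was 0.495, with 23 above 0, 10 higher and 3 lower with no overlap between the arms, and 1 called. Over all probe sets 7.50% were higher and 8.87% lower with no overlap, and 0.0423% were called in each direction. Probe sets of the same RT1 gene differed in size and sign, related genes share probe sequence, and whether the rats differed in their RT1 alleles was not tested.

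**Figure D2:**
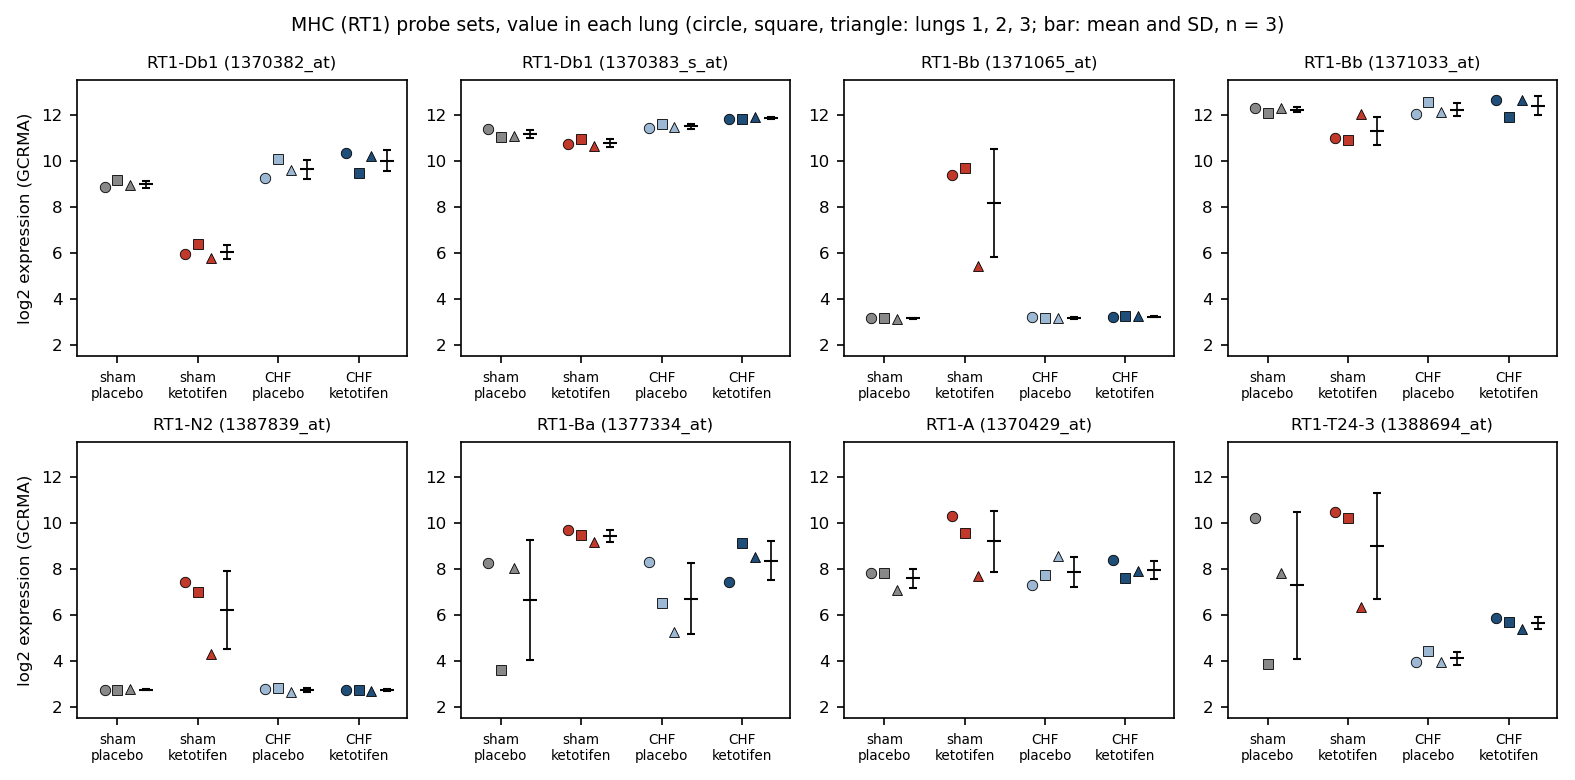
Log2 expression of 8 RT1 probe sets in each lung by group, on a common axis, with the mean and SD of 3 lungs. RT1-Bb at 1371065_at and RT1-N2 were near background in 9 lungs and raised in the 3 sham ketotifen lungs, RT1-Db1 at 1370382_at was low in those 3 lungs alone, and RT1-Ba at 1377334_at was low in sham placebo lung 2.

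Past the calls, the genes of smallest p without overlap between the arms were named by rule, 11 higher and 14 lower, none of them past the adjusted threshold. The higher ones included Atp8b4, of the phospholipid flippase family, at 1.76 ± 0.27 (adjusted p = 0.0508), with 3.86, 3.40 and 3.69 in the placebo lungs and 5.33, 5.57 and 5.33 in the ketotifen lungs. Its mean in CHF placebo lungs was 5.64, so that the sham placebo lungs were the low group. Plaat3, a phospholipase and acyltransferase, was at 1.21 ± 0.19, and Lgals1, which encodes galectin-1, at 1.09 ± 0.18 (adjusted p = 0.0512 and 0.0514). Pola2, a subunit of DNA polymerase alpha, was at 1.84 ± 0.29. Unc13d, needed for granule exocytosis in cytotoxic lymphocytes and mast cells, was at 1.21 ± 0.23 (adjusted p = 0.0867), and Serpinb9, an inhibitor of granzyme B, at 1.11 ± 0.20 (adjusted p = 0.0753). Car2, a carbonic anhydrase, stood at 0.68 ± 0.12, Wtap, of the RNA methylation complex, at 0.92 ± 0.17, Cmtm3 at 0.78 ± 0.14 and Tmem26 at 1.40 ± 0.26.

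Among the lower ones, Mtarc1, a mitochondrial reductase, measured 6.33, 6.62 and 6.63 with placebo and 4.48, 4.29 and 4.08 with ketotifen (-2.25 ± 0.35, adjusted p = 0.0512). Pdk4, the kinase that shuts off pyruvate dehydrogenase, measured 9.17, 10.08 and 10.14 with placebo and 7.75, 6.96 and 7.21 with ketotifen (-2.49 ± 0.43, adjusted p = 0.0725). Both arms lay apart by more than 1 log2 unit in these 2 genes. In CHF placebo lungs Mtarc1 had a mean of 4.77 and Pdk4 of 8.16. These lay nearer to the sham ketotifen means (4.28 and 7.31) than to the sham placebo means (6.53 and 9.80). Ehhadh, of peroxisomal fatty acid oxidation, was at -1.15 ± 0.18, and Gsta1, a glutathione transferase, at -1.02 ± 0.19. Ehhadh measured 4.32, 4.12 and 4.31 with placebo and lay near background in all other lungs of the series. It passed the filter only through the sham placebo lungs, so that it had to differ, and its values are a description. Spring1, which acts in sterol sensing, was at -1.12 ± 0.21 and Slc7a6, an amino acid transporter, at -1.30 ± 0.24. Cep162, which acts in building cilia, was at -0.99 ± 0.19 (adjusted p = 0.0867). Jhy, which also acts there, was at -1.51 ± 0.28. The remaining genes were Clk3, a splicing kinase, at -0.72 ± 0.12, Wnk2, a kinase of ion transport, at -1.72 ± 0.32, Iqcc at -1.25 ± 0.21, Anks3 at -0.94 ± 0.16, Zbtb40 at -0.91 ± 0.17 and C15h8orf58 at -1.55 ± 0.30. Jhy, Wnk2 and Anks3 entered the test through the sham placebo lungs, where they are high. Too few other lungs reached the filter's level of 4. The values of these genes are a description, and the sizes of their differences are uncertain.

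Gene lists are described by counts, against all 9788 genes measured with 1 probe set each, the brightest. In that background the median difference was -0.0189, 5.95% of genes were higher and 8.37% lower at an unadjusted p under 0.05, and 7.22% were higher and 9.54% lower with no overlap between the arms. Of 42 lists, 2 held a called gene, and 11 held no gene at an unadjusted p under 0.05.

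Lymphocyte genes other than Fcrla were not called. Of 21 B cell genes 10 were measured, with a median difference of 0.52, 4 higher at an unadjusted p under 0.05 and 0 lower. Pou2af1, a B cell coactivator of transcription, measured 3.59, 3.97 and 4.29 with placebo and 4.47, 6.23 and 5.60 with ketotifen (1.48 ± 0.40, adjusted p = 0.217). Ms4a1, which encodes CD20, measured at most 4.99 with placebo and 4.39, 7.15 and 3.84 with ketotifen, where the arms overlapped and ketotifen lung 2 was the high lung. Fcmr, an IgM receptor, was highest in the same lung, at 8.07. The B cell median was -0.0635 without ketotifen lung 2, so that its sign rested on that lung. The 6 plasma cell genes measured had a median of -0.193, with Jchain, the antibody joining chain, at -0.60 ± 0.48 and Mzb1, a chaperone of antibody secretion, at -1.36 ± 0.54 (adjusted p = 0.601 and 0.311).

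T cell and killer cell genes stood higher in the ketotifen arm with 0 called. Of 34 T cell genes 11 were measured, with a median of 0.50 and 2 at an unadjusted p under 0.05, both higher. Lck, the kinase of T cell receptor signalling, measured 5.46, 4.66 and 5.09 with placebo and 6.14, 6.98 and 5.95 with ketotifen (1.28 ± 0.35, adjusted p = 0.218). Cd3g, of the receptor complex, was at 1.13 ± 0.38 and Cd247, its zeta chain, at 1.25 ± 0.61, and neither arm overlapped the other in these 3 genes. All 13 natural killer and cytotoxic genes measured were above 0, with a median of 1.65 and 2 higher at an unadjusted p under 0.05. Nkg7, a granule protein of killer cells, measured 4.71, 2.62 and 4.03 with placebo and 6.44, 6.15 and 4.81 with ketotifen (2.01 ± 0.77, adjusted p = 0.302). Gzmb, granzyme B, measured 7.19, 3.79 and 5.59 with placebo and 8.32, 7.95 and 6.72 with ketotifen, and Prf1, perforin, 8.69, 4.36 and 6.89 against 9.27, 9.30 and 8.03. In all 3 genes placebo lung 2 was the low lung. The mean level of the list was 6.34, 3.90 and 5.35 in the placebo lungs and 6.71, 7.26 and 5.86 in the ketotifen lungs, against 5.03 to 7.01 in CHF lungs. The median of the killer list was 0.725 without placebo lung 2, 0.43 without the lung of largest 3' minus 5' difference in each arm and -0.124 without the 3 lungs of largest difference. In the T cell list it was 0.0811 and 0.0086 in these last 2 settings. Without the filter on low values the medians were 0.468 for the killer list and 0.304 for the T cell list.

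**Figure D3:**
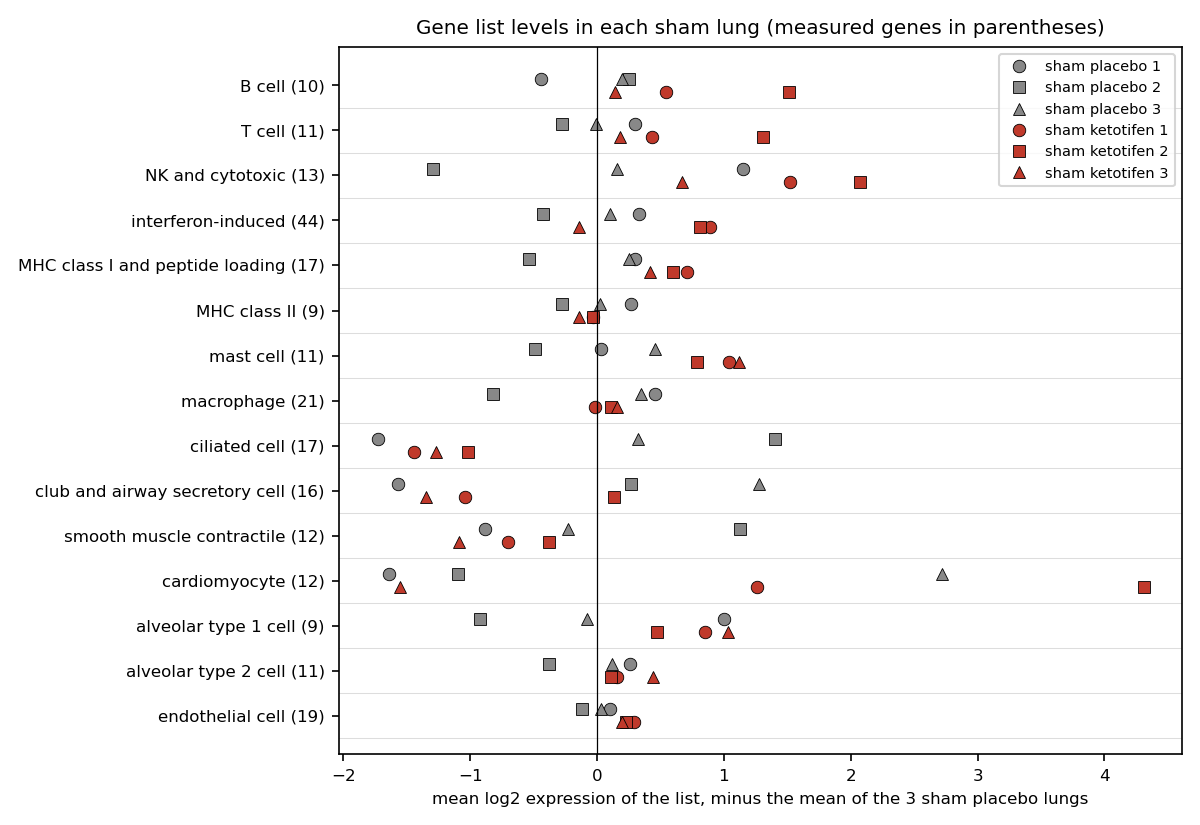
Mean log2 expression of 15 gene lists in each of the 6 sham lungs, given as the difference from the mean of the 3 placebo lungs, with the number of measured genes in parentheses. Killer cell genes were lowest in sham placebo lung 2, ciliated cell genes were high in placebo lungs 2 and 3 only, cardiomyocyte genes were high in placebo lung 3 and ketotifen lungs 1 and 2, and the mast cell list was higher in each ketotifen lung than in any placebo lung.

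Interferon-induced genes were the list with the largest number of measured members, 44 of 57. Of these 38 were above 0, with a median of 0.55, and 12 were higher and 1 lower at an unadjusted p under 0.05, with Ifit1 the only one called. In 4 of the 44 the arms did not overlap, all higher, and 7.22% of all genes were higher in this way. Irf1, a transcription factor of the interferon response, measured 9.35, 8.78 and 8.98 with placebo and 10.07, 10.17 and 9.59 with ketotifen (0.90 ± 0.23, adjusted p = 0.187). Psmb9, an immunoproteasome subunit, was at 0.84 ± 0.22 and Dhx58, a sensor of viral RNA, at 0.59 ± 0.19, both without overlap. Isg15, a ubiquitin-like antiviral protein, measured 7.76, 6.27 and 7.20 with placebo and 9.34, 9.36 and 7.04 with ketotifen. Oasl, an oligoadenylate synthetase-like protein, gave 5.49, 5.30 and 5.07 against 6.91, 6.58 and 5.23. In both genes ketotifen lungs 1 and 2 were above every placebo lung and lung 3 was within their range. The list's mean level had this order as well, 7.94, 7.18 and 7.71 with placebo against 8.50, 8.42 and 7.47 with ketotifen, and 7.56 to 8.20 in CHF lungs. Members near 0 included Ifi44 at 0.06 ± 0.18, Ifitm3 at 0.08 ± 0.20 and Cxcl10, a chemokine for T cells, at 0.13 ± 0.39. Stat2, which carries the type I interferon signal to the nucleus, was at -0.50 ± 0.18 (adjusted p = 0.292). The median of the list was 0.204 without placebo lung 2, 0.0455 without placebo lung 2 and ketotifen lung 2, and -0.0958 without the 3 lungs with cardiomyocyte RNA.

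Interferon factors bind promoters at the interferon-stimulated response element, whose core repeats GAAA. The promoters of 3 members with an unadjusted p under 0.05 are shown because they hold this core, taken from RefSeq (build GRCr8) as 250 bases before to 50 after the gene's start, with the core (GAAA, any 2 bases, GAAA), on either strand, in capitals. Igtp, an interferon-induced GTPase, lies at chr10:42874797-42875096 on the + strand, Psmb8, an immunoproteasome subunit, at chr20:4656982-4657281 on the - strand, and Gbp2, a guanylate binding protein, at chr2:234005477-234005776 on the + strand.
Igtp: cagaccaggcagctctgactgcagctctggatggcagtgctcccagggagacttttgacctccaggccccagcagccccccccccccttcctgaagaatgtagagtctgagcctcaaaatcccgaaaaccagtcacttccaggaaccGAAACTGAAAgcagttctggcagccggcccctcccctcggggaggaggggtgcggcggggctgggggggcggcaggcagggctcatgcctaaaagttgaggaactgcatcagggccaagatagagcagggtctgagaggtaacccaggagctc
Psmb8: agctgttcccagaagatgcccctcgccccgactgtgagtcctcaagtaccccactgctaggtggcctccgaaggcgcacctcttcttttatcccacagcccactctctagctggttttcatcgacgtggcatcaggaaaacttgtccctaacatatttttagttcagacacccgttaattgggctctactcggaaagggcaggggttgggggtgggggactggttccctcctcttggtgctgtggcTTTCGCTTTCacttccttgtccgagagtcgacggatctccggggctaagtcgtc
Gbp2: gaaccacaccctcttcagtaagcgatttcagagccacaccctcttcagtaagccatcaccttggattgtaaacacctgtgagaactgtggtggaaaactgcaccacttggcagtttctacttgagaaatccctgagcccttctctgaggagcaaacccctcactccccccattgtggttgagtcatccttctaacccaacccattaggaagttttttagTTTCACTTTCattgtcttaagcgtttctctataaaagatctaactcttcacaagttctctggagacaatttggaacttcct
The core begins 103 bases before the start in Igtp, 4 bases before it in Psmb8 and 31 bases before it in Gbp2. Searched on both strands, it was in 23 of the 36 list members found in the promoter table (63.9%) and in 1312 of all 33469 promoters (3.92%). A member was counted if any of its promoters held the core, while the second share is over single promoters, so that the shares are in unlike units. Among the 12 members higher at an unadjusted p under 0.05, 9 were in the table and 5 held it, against 18 of the other 27. Igtp measured 8.17, 6.66 and 7.59 with placebo and 8.87, 9.01 and 7.93 with ketotifen (1.12 ± 0.36, adjusted p = 0.257). Psmb8 gave 9.36, 8.20 and 8.90 against 10.34, 10.39 and 9.03, and Gbp2 gave 9.39, 8.29 and 9.23 against 10.20, 10.22 and 9.34. In all 3 genes ketotifen lungs 1 and 2 were above the placebo lungs and lung 3 was not. A match of these letters is a description of the window and not of a bound site.

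**Figure D4:**
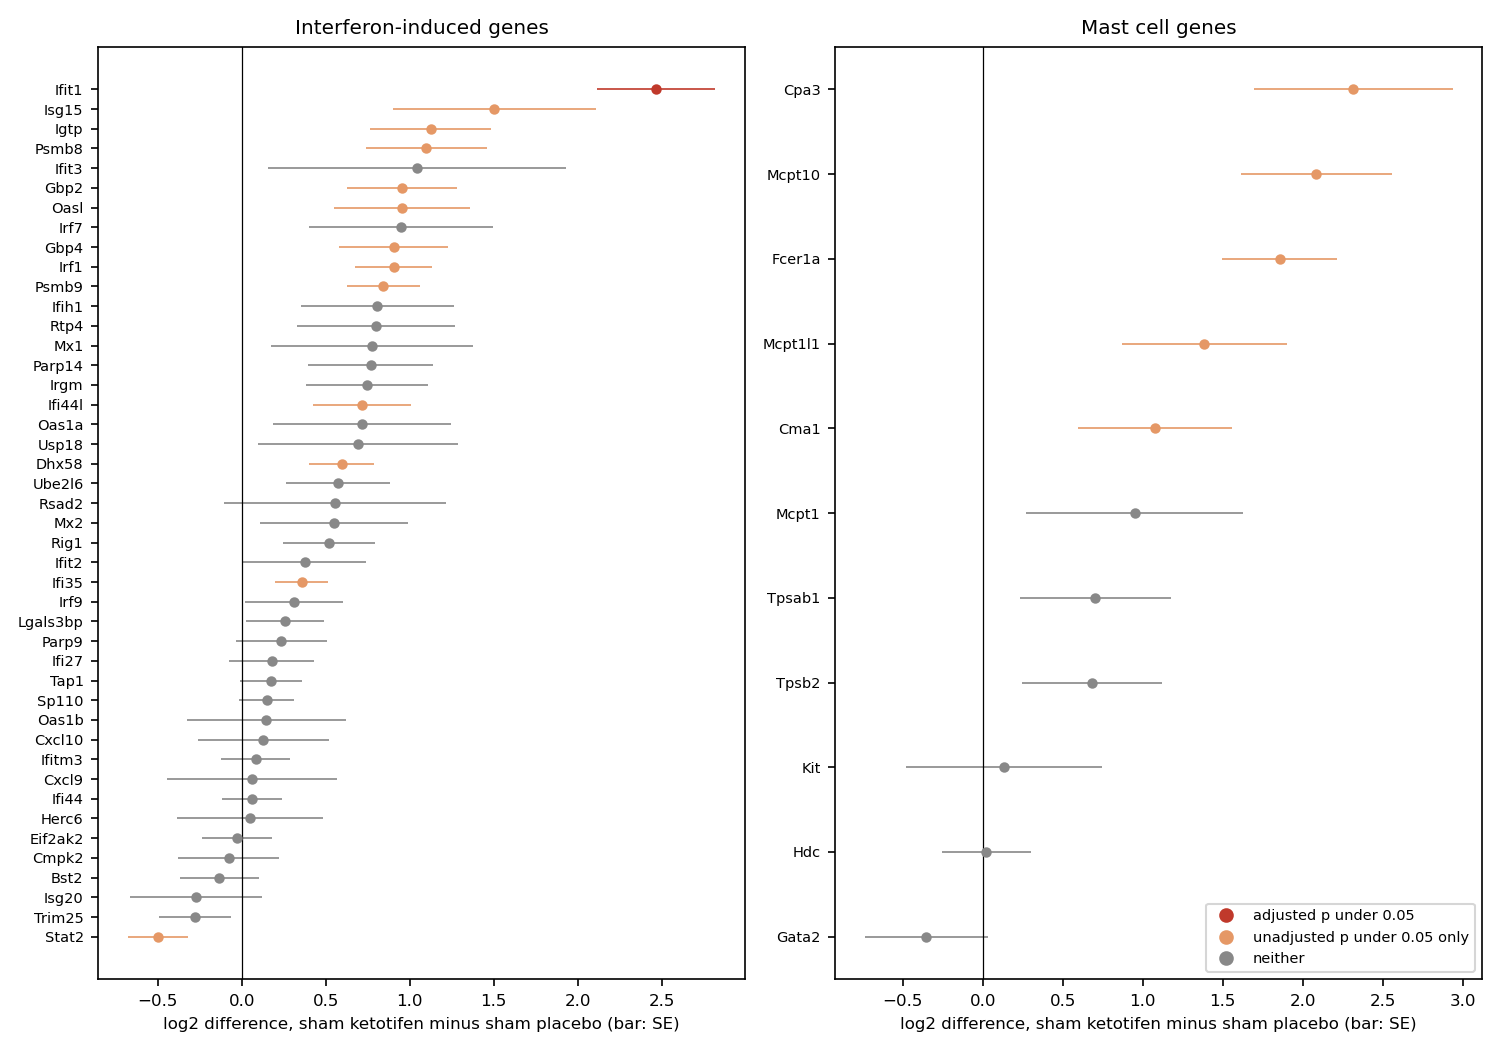
Log2 difference between ketotifen and placebo sham lungs, with its SE, for the 44 interferon-induced genes and the 11 mast cell genes measured, coloured by the limma test. Ifit1 at 2.47 is the one called gene. The highest mast cell differences are those of Cpa3, Mcpt10 and Fcer1a, at 2.32, 2.08 and 1.85.

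The machinery of class I antigen presentation stood higher as well, with 0 genes called. Of 17 genes measured 16 were above 0, with a median of 0.49, 7 higher and 0 lower at an unadjusted p under 0.05 and 6 higher with no overlap. Psme2, a proteasome activator, measured 8.83, 8.67 and 8.87 with placebo and 9.54, 9.57 and 8.97 with ketotifen (0.57 ± 0.16, adjusted p = 0.221). Tapbp, which loads peptide on class I, was at 0.49 ± 0.18 and Psmb10, the third immunoproteasome subunit, at 0.57 ± 0.24. Psmb8 and Psmb9 are counted in this list and in the interferon list. The median lay between 0.327 and 0.589 in the 6 fits without 1 lung, and was 0.206 without the 3 lungs of largest 3' minus 5' difference. The 9 class II genes had a median of -0.041, with RT1-Da, an alpha chain, at -0.04 ± 0.13.

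Airway genes stood lower in the ketotifen arm, with 0 called, and the placebo lungs differed widely among themselves. All 17 ciliated cell genes measured were below 0, with a median of -1.31, 4 lower at an unadjusted p under 0.05 and 0 without overlap between the arms. Their mean level was 5.87, 9.00 and 7.92 in the placebo lungs, 6.16, 6.58 and 6.33 in the ketotifen lungs and 5.21 to 6.17 in CHF lungs. Placebo lungs 2 and 3 were high, and placebo lung 1 was below the ketotifen lungs. Zmynd10, needed to assemble the motor arms of cilia, measured 6.57, 10.09 and 8.81 with placebo and 6.70, 7.09 and 6.78 with ketotifen (-1.63 ± 0.69, adjusted p = 0.331). Foxj1, the master regulator of motile cilia, measured 4.62, 7.79 and 6.18 against 4.54, 6.05 and 4.68. Rfx3, another regulator of cilium genes, had the smallest p of the list (-1.06 ± 0.37, adjusted p = 0.29). The ciliated median was -0.654 without placebo lung 2, -2.28 without placebo lung 1, and 0.332 without placebo lungs 2 and 3 and ketotifen lung 2, the lungs of largest 3' minus 5' difference. In that last setting Zmynd10 was at 0.17, Ccdc40 at 0.31 and Cfap45 at 0.31, both of the last being cilium structure genes.

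Club and airway secretory genes had a similar spread. Of 16 measured 15 were below 0, with a median of -0.85 and 1 lower at an unadjusted p under 0.05. Scgb1a1, the main secretory protein of club cells, measured 15.87, 16.23 and 16.08 with placebo and 15.81, 15.82 and 15.82 with ketotifen (-0.24 ± 0.11, adjusted p = 0.351), near the top of the scale. Cyp2f4, a cytochrome P450 of club cells, measured 7.11, 11.43 and 10.79 with placebo and 7.89, 9.24 and 6.75 with ketotifen. Muc5b, an airway mucin, measured 4.59, 7.40 and 10.43 against 5.46, 6.76 and 4.95, and Bpifa1, a secreted protein of upper airways, 3.59, 3.64 and 12.40 against 5.78, 8.80 and 3.63. The arms overlapped in these 3 genes, and placebo lung 3 held the highest Muc5b and Bpifa1. Retnla, which macrophages also make, was the exception at 1.74 ± 1.17. The club list's mean level was 8.32, 10.16 and 11.17 with placebo and 8.85, 10.02 and 8.54 with ketotifen, and its median was 0.256 without the 3 lungs of largest 3' minus 5' difference and -0.474 without the filter. Smooth muscle contractile genes, all 12 measured below 0 with a median of -0.66, were highest in placebo lung 2 (mean level 10.70, against 8.48 to 9.34 in the 5 other sham lungs). Their median was -0.126 without that lung and -0.0185 without the 3 lungs of largest 3' minus 5' difference. Myh11, smooth muscle myosin, measured 10.31, 12.63 and 11.17 with placebo and 10.49, 10.33 and 9.92 with ketotifen. Cytl1, of the cartilage list, measured 8.81, 8.79 and 10.44 against 8.30, 8.17 and 8.04 (-1.18 ± 0.44, adjusted p = 0.3). The part of airway content in the other differences was not tested.

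Mast cell genes, the cells that ketotifen stabilizes, stood higher with the drug in sham lungs, with 0 called. Of 21 listed genes 11 were measured, 10 above 0, with a median of 0.95, 5 higher at an unadjusted p under 0.05 and 6 higher with no overlap between the arms, against 7.22% of all genes. Fcer1a, a chain of the IgE receptor, measured 3.12, 2.65 and 2.68 with placebo and 5.04, 4.49 and 4.48 with ketotifen (1.85 ± 0.36, adjusted p = 0.0934). Cpa3, the granule carboxypeptidase, measured 2.91, 3.22 and 4.52 against 6.27, 5.22 and 6.10 (2.32 ± 0.62, adjusted p = 0.216). Mcpt10, a granule protease, measured 5.66, 4.60 and 5.59 against 7.31, 6.81 and 7.98 (2.08 ± 0.47, adjusted p = 0.147). Every ketotifen lung was above every placebo lung in these 3 genes, while 2 of them lay near background with placebo. Mcpt1l1 was at 1.39 ± 0.51 and Cma1, chymase, at 1.08 ± 0.48, and the tryptases Tpsb2 and Tpsab1 were at 0.68 ± 0.44 and 0.70 ± 0.47. Near 0 or below were Kit, the stem cell factor receptor, at 0.13 ± 0.61, Hdc, which makes histamine, at 0.02 ± 0.28, and Gata2, a transcription factor also of endothelium, at -0.35 ± 0.38. The mean level of the list was 4.91, 4.39 and 5.34 with placebo and 5.92, 5.67 and 6.0 with ketotifen, and the CHF lungs lay between 5.97 and 7.67. Its median was between 0.639 and 1.52 in the 6 fits without 1 lung and 0.709, 1.03 and 1.59 in the 3 settings that leave out the doubted lungs, but 0.246 without the filter on low values. Related mast cell proteases share sequence, so that their single values are uncertain.

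Histamine handling had 4 of 10 listed genes measured, and 0 were called. Maob, a monoamine oxidase, measured 9.89, 9.20 and 9.51 with placebo and 10.15, 10.15 and 10.27 with ketotifen (0.66 ± 0.16, adjusted p = 0.182), with no overlap. Aoc1, the diamine oxidase that breaks down histamine, was at 0.87 ± 0.46 and Slc22a3, a transporter of monoamines, at 0.02 ± 0.27. Histamine receptors did not pass the filter on low values or are not among the genes named here.

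The glucocorticoid-induced, clock, sterol, complement and chaperone lists held 0 called genes. Of 13 glucocorticoid-induced genes 12 were below 0 (median -0.37), with 2 lower at an unadjusted p under 0.05, Pdk4 given above and Fkbp5, a chaperone of the glucocorticoid receptor. Fkbp5 measured 10.74, 9.87 and 11.08 with placebo and 9.34, 8.30 and 9.52 with ketotifen (-1.51 ± 0.56, adjusted p = 0.296), without overlap. Of 17 clock genes 12 were below 0, and Cry1, a repressor of the clock, was at -1.02 ± 0.36 (adjusted p = 0.29). Of 14 sterol and fatty acid synthesis genes 5 were above 0 and 9 below (median -0.307). Fasn, fatty acid synthase, was at -0.75 ± 0.23 and Sqle, of cholesterol synthesis, at -1.03 ± 0.39, while Scd, stearoyl-CoA desaturase, was at 1.05 ± 0.47. Of 19 oxidative phosphorylation genes 16 were above 0, with a median of 0.107 and 5 higher and 0 lower without overlap. Of 15 complement genes 3 were lower at an unadjusted p under 0.05 without overlap: Cfi, complement factor I, at -2.61 ± 0.89, C5 at -0.98 ± 0.36 and C1s at -0.37 ± 0.17. The chaperones Hspa5 and Hsph1 were at -0.41 ± 0.15 and -0.89 ± 0.35. Of the drug and oxidant metabolism list, Gsta1 is given above, Gsta4, another glutathione transferase, was at 0.79 ± 0.29 and Srxn1, sulfiredoxin, near background at -0.52 ± 0.20. Aurkb, a mitotic kinase, had the largest difference of the cell cycle list, with 6.70, 10.45 and 9.99 in the placebo lungs and 5.54, 5.33 and 5.44 in the ketotifen lungs (-3.61 ± 0.74, adjusted p = 0.108). The median over the 18 cell cycle genes was 0.139, so that Aurkb did not go with its list.

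The macrophage, endothelial and alveolar lists held 0 called genes. The macrophage median over 21 genes was 0.003, with Itgax, an integrin of alveolar macrophages, at 6.01, 4.61 and 5.25 with placebo and 6.44, 6.81 and 7.08 with ketotifen (1.49 ± 0.40, adjusted p = 0.217). Adgre1, a surface marker of macrophages, was at 0.96 ± 0.29 and Csf1r, the receptor for colony stimulating factor, at 1.10 ± 0.37. Of 19 endothelial genes 6 were higher without overlap and the median was 0.18. Aplnr, the apelin receptor, measured 8.50, 7.75 and 8.13 with placebo and 8.76, 9.39 and 8.75 with ketotifen (0.83 ± 0.26, adjusted p = 0.248), and its ligand Apln was at 0.67 ± 0.24. Esam, a junction protein, was at 0.47 ± 0.15. The 9 alveolar type 1 genes were all above 0 (median 0.74), with placebo lung 2 the low lung (mean level 9.79, against 10.63 to 11.74 in the others), and the median was -0.108 without the 3 lungs of largest 3' minus 5' difference. The 11 alveolar type 2 genes had a median of 0.094, with Napsa, a protease of surfactant processing, at 0.83 ± 0.27 and Lamp3, of lamellar bodies, at 0.83 ± 0.31. Matrix genes had a median of 0.227 over 26, with Postn, periostin, at 0.57 ± 0.24. Inflammatory genes had a median of 0.139 over 20, with 4 higher at an unadjusted p under 0.05. Tnfaip3, a brake on NF-kappaB, was at 0.95 ± 0.27, Socs3, a brake on cytokine signalling, at 1.13 ± 0.41, Ccl2, a monocyte chemokine, at 0.82 ± 0.31 and Icam1, an adhesion molecule, at 1.04 ± 0.46 (adjusted p = 0.227, 0.294, 0.302 and 0.35). Hbb, beta hemoglobin and a sign of blood in the sample, measured 7.66, 7.99 and 9.64 with placebo and 10.99, 9.67 and 10.16 with ketotifen (1.84 ± 0.64, adjusted p = 0.285). Its part in the leukocyte genes was not tested.

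Whether the drug difference in sham lungs departs from that in CHF lungs was tested in the same fit, in which the 2 comparisons share no lungs. Of 16536 probe sets 61 departed (0.369%), 19 with the sham difference above the CHF difference and 42 below, and 1778 (10.8%) had an unadjusted p under 0.05. The sham difference was the larger in size in 17 of the 61 and the CHF difference in 44. Of the 14 probe sets called in sham lungs 9 were among the 61, each with the larger difference in sham lungs. The 14 were chosen by their sham difference, which is a part of this test, so that this direction was built in. Among the 9, Ifit1 and 1385868_at entered the tests through the sham ketotifen lungs, where they are high, and their departures are a description. Vav3 differed by 1.23 in sham and by -0.67 in CHF lungs, where placebo lungs measured 7.33, 7.47 and 7.53 and ketotifen lungs 6.85, 6.57 and 6.89 (interaction 1.90 ± 0.20, adjusted p = 0.0017). Fcrla differed by -0.76 in CHF lungs (interaction adjusted p = 0.0241), Ifit1 by -0.62 (0.0279), Mtfr2 by 0.64 (0.0263) and RT1-Db1 at 1370382_at by 0.37 (0.0029). Klf10 differed by 0.25 in CHF lungs, and its departure was not called (adjusted p = 0.12). The 5 genes of smallest interaction p were Ccl7, Cxcl2 and Ccl2, which are chemokines for monocytes and neutrophils, Depdc1 and Tfpi2, an inhibitor of tissue factor. Their sham differences were 0.03, 0.13, 0.82, 0.03 and 0.27, and their CHF differences 5.80, 5.69, 5.65, 2.59 and 5.97. Ccl7, for example, measured between 2.75 and 2.83 in all 6 sham lungs and 8.33 to 8.95 in CHF ketotifen lungs. Ccl7, Cxcl2 and Depdc1 passed the filter only through the CHF ketotifen lungs and lay near background in the 9 others, so that their differences are a description and a small difference in sham lungs could not be seen. The same holds for Tfpi2, with CHF placebo lung 1 at 4.38 and the sham lungs between 2.93 and 3.73. The count of 61 was 195 without sham placebo lung 1, 303 without CHF placebo lung 1, 21 without CHF placebo lung 2, 22 without sham placebo lung 3, 26 without sham ketotifen lung 1, 29 without CHF ketotifen lung 3, 30 without CHF placebo lung 3, 33 without CHF ketotifen lung 1 and 34 without sham ketotifen lung 2 or 3.

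**Figure D5:**
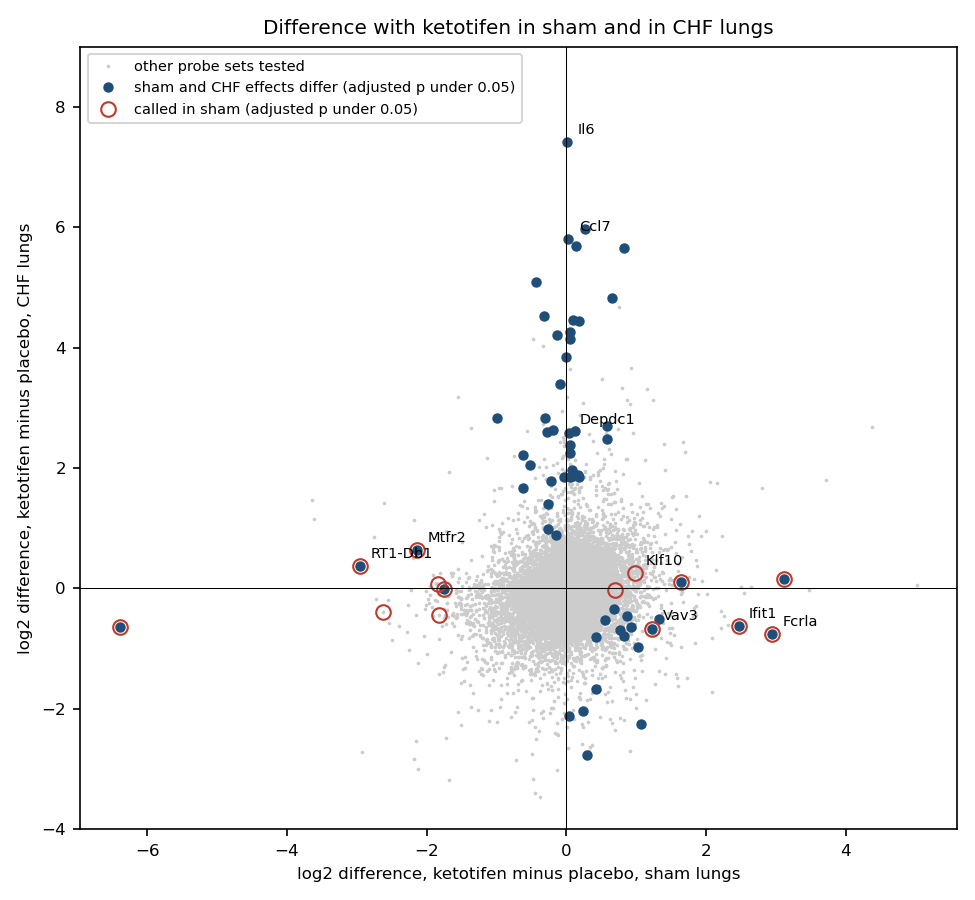
Log2 difference with ketotifen in sham lungs (x axis) and in CHF lungs (y axis) for the 16536 probe sets tested, with the 61 whose differences depart from each other filled in blue and the 14 called in sham lungs ringed in red. The sham calls spread along the x axis and lay between -0.76 (Fcrla) and 0.64 (Mtfr2) in CHF lungs. Il6, Ccl7 and other blue points spread along the y axis with sham differences near 0.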

How the data were processed

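Whole lungs of 12 rats were measured on Affymetrix rat genome arrays, 1 array per lung. The values are the log2 expression values per probe set deposited by the authors. The submitters' processing notes name GCRMA and R 2.5.0; further settings: not given in the sources used here. That method models background from probe sequence, which flattens low values. Array scans and batch labels were not used here, so batches were not tested. An array has no read depth, and the number of arrays limits the precision. The table held 31099 probe sets, with 57 controls left out of the tests. Of the other 31042, 20826 had 1 gene symbol in the platform annotation, 436 several and 9780 none. The filter, a log2 value of at least 4 in at least 3 of 12 arrays, kept 16536.

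The arms were compared by limma 3.58.1 under R 4.3.3 (lmFit, eBayes with intensity trend, two-sided, 12 arrays, 4 group means, 8 residual degrees of freedom), with Benjamini-Hochberg adjustment over all probe sets kept. SEs are those of the moderated fit. The fit was tested on simulated data. No set test was run. Lists take the brightest probe set of a gene.

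Genes were named by rule: the 15 higher and 15 lower of largest difference among called genes with 1 symbol and no overlap between the arms, filled by smallest p; the 4 members of smallest p and every called member of each list; any measured member of the lymphocyte, interferon, airway, mast cell and histamine lists; and the 5 of smallest interaction p. Called probe sets without a name and RT1 probe sets were added after their values were seen. The comparison and the 42 lists were chosen with earlier results of these data known. Promoters came from the RefSeq table of GRCr8, whose coordinates are not those of the array's design. Alternatives were other filters, scalings, fits and left-out lungs.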

Additional observations from a re-analysis of the deposited data

Results flagged for a closer look

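Results are listed here because the drug difference in sham lungs and that in CHF lungs departed from each other by the interaction term of the limma fit, at an adjusted p under 0.05. In all 61 probe sets did. Values are the sham difference minus the CHF difference on the log2 scale. In 19 of them the sham difference was above, among them Vav3 (1.90), Fcrla (3.70), Ifit1 (3.09), Wtap (1.57) and Car2 (1.02). Those below because sham lungs fell or stood low were RT1-Db1 at 1370382_at (-3.32) and Mtfr2 (-2.77). The genes named next had a sham difference between -0.52 and 0.82 and a larger CHF difference. They include the chemokines Ccl7 (-5.77), Cxcl2 (-5.55), Ccl2 (-4.83) and Cxcl1 (-4.36), the cytokine Il6 (-7.41) and the decoy receptor Il1r2 (-2.49). Others were the clotting inhibitor Tfpi2 (-5.70), the prostaglandin synthase Ptgs2 (-4.09), Cyp1a1 (-4.17), and the oxidant response genes Srxn1 (-2.57) and Nfe2l2 (-1.03). The transcription and early response genes were Fosb (-4.27), Nr4a3 (-5.52), Ier3 (-2.01), Nfkbiz (-1.78) and Myc (-1.90), and Depdc1 stood at -2.55. Ccl7, Cxcl2, Depdc1, Il1r2, Cyp1a1, Srxn1 and Fosb passed the filter only through the CHF ketotifen lungs and lay near background in all other lungs. Il6, Tfpi2 and Nr4a3 also passed it only through those lungs. CHF placebo lung 1 had them at 5.73, 4.38 and 4.56, and all sham lungs were under 4. All of these genes had to differ there, and their values are a description. Likewise Ifit1 entered the test through the sham ketotifen lungs, where it is high, and its value is a description. Genes beyond the naming rule, such as Fosb and Myc, were named after their values were seen.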

How the results depend on the processing

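The count of 14 probe sets called in sham lungs was 7 with the stricter filter (log2 of at least 6), 2 with only the 6 sham arrays and between 4 and 722 without 1 lung. It was 3747 with array weights, an estimate that did not converge and gave sham placebo lung 3 a weight of 35.1 (0.305 to 3.77 for the others). In 2 of the 3 settings chosen after seeing the data 1 lung was left in an arm, and their counts are not given. These left out the 3 lungs of largest 3' minus 5' difference or the 3 lungs with cardiomyocyte RNA. Without the lung of largest difference in each arm the count was 2. With no trend, no filter, quantile normalization or equal medians it was 19, 16, 13 and 17, but only 9 of the 14 calls were among the 16 without the filter. The count of 61 departures was 36 with no filter, 3169 with array weights and between 21 and 303 without 1 lung. It was 24 without the lung of largest 3' minus 5' difference in each arm. The replicate block left 6 and 37 calls. The numbers are not given as pairing animals, and same-numbered sham lungs deviated with correlations of 0.231, 0.263 and -0.209, so that not every lung went best with its own number. The difference of Scgb1a1 was 0 under quantile normalization. Some signs turned where 1 lung was left in an arm. This was so for RT1-A at 1370429_at without the cardiomyocyte lungs (-0.13). Without the 3 lungs of largest 3' minus 5' difference it was so for Zmynd10 (0.17), Ccdc40 (0.31), Cfap45 (0.31) and Sparc (-0.00055). There were 3 lungs per arm and nothing but the group labels to separate them. In the fit of all arrays, p-values set a difference against a spread within groups. That spread was pooled over sham and CHF lungs and moderated across probe sets, so that it is not that of the sham lungs alone.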
